A study of Bos taurus with 3 samples.

Results

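CD antigens are surface molecules numbered by the clusters of antibodies that first recognised them, and many of them tell one kind of blood or tissue cell from another. The set described here holds every gene of the bovine mammary tables whose symbol is CD followed by a number and optional letters, without CD14, CD36, CD68 and CD163. It has 47 genes of the 9154 listed in any library, under 46 symbols, because CD1A has 2 accessions. In the −35 d library 46 of them were listed, in the −7 d library 42 and in the +3 d library 45, and 41 were listed in all 3 libraries. The members were grouped by the cell type that carries the antigen, and 1 of them, CD3EAP, shares only the letters: ARS-UCD2.0, a bovine assembly with RefSeq annotation, names it POLR1G, a subunit of RNA polymerase I.

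Mammary biopsies of 18 Holstein cows in the second parity were taken 35 days before parturition (−35 d, the dry period), 7 days before (−7 d, stage I of lactogenesis) or 3 days after (+3 d, stage II, when colostrum is made). Tissue from each set of 6 cows went into a single RNA pool, and each pool gave 1 digital gene expression (DGE) library, so no spread among cows can be measured and every test compares libraries, not conditions. In DGE each transcript is read as a short tag beside a CATG site, and the level of a gene is given in TPM, the tags of the gene scaled to a fixed total of clean tags, with no scaling by length. Genes differ in their CATG sites and in the tags dropped because they matched several genes. Tags of different genes are therefore not read as relative amounts of transcript. In whole tissue fewer cells of a type and less RNA per cell cannot be told apart.

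T cells carry the CD3 chains, which pass the signal of the antigen receptor into the cell. Many, but not all, also carry CD4 or CD8 as the co-receptor that reads MHC class II or class I. Dendritic cells, macrophages and B cells present antigen and carry CD1, CD40, CD74, CD83 and CD86. Tetraspanins such as CD9, CD63, CD81 and CD151 arrange integrins and other partners in the membrane of epithelial, stromal and immune cells alike, so they do not mark one cell type. In the bovine gland, lymphocytes and macrophages lie in the epithelium and stroma and enter colostrum.

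The libraries held 5914422 (−35 d), 5593237 (−7 d) and 5845821 (+3 d) clean tags, and 3 tags correspond to 0.507, 0.536 and 0.513 TPM. Tags with 1 copy were removed before deposit, so a gene listed at 0 may still have been transcribed. Over the 3 libraries a member had between 2 and 19573 tags, with a median of 172. Markers of the luminal epithelium were present: EPCAM was at 498, 293 and 210 TPM and KRT8 at 297, 157 and 164 TPM at −35 d, −7 d and +3 d. The haemoglobin gene HBB had 2 tags at −35 d and was listed at 0 in the other libraries. Without the milk protein genes CSN1S1, CSN1S2, CSN2, CSN3 and PAEP, each over 1% of the clean tags of a library, the totals were 5893812, 5362090 and 4524003 tags. The trimmed mean of M-values (TMM), which sets the bulk of genes level, moved the median log2 ratio of all genes averaging at least 1 TPM from −0.19 to −0.003 at −7 d over −35 d, from −0.31 to −0.004 at +3 d over −7 d, and from −0.54 to −0.04 at +3 d over −35 d. Ratios are given as deposited, relative to clean tags, with the TMM outcome beside them where it changes the call of a member. For directions, and for genes outside the set, the TMM outcome is given in some cases only.

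Together the 47 genes held 24903, 15150 and 16029 tags at −35 d, −7 d and +3 d, or 4211, 2709 and 2742 TPM, and without CD74, the member with the most tags, 2591, 1710 and 1988 TPM. The highest of the 3 levels was at −35 d for 28 of the 41 members that averaged at least 1 TPM (68.3%, against 53.7% of all genes that did), at −7 d for 6 and at +3 d for 7. Under TMM scaling these numbers became 18, 6 and 17, so the place of the maximum depended on the scaling for many members, and the −7 d library held the lowest level for 22 of 41 (53.7%, against 32.0% of all genes). The plot of levels shows each member in the 3 libraries.

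**Figure D1:**
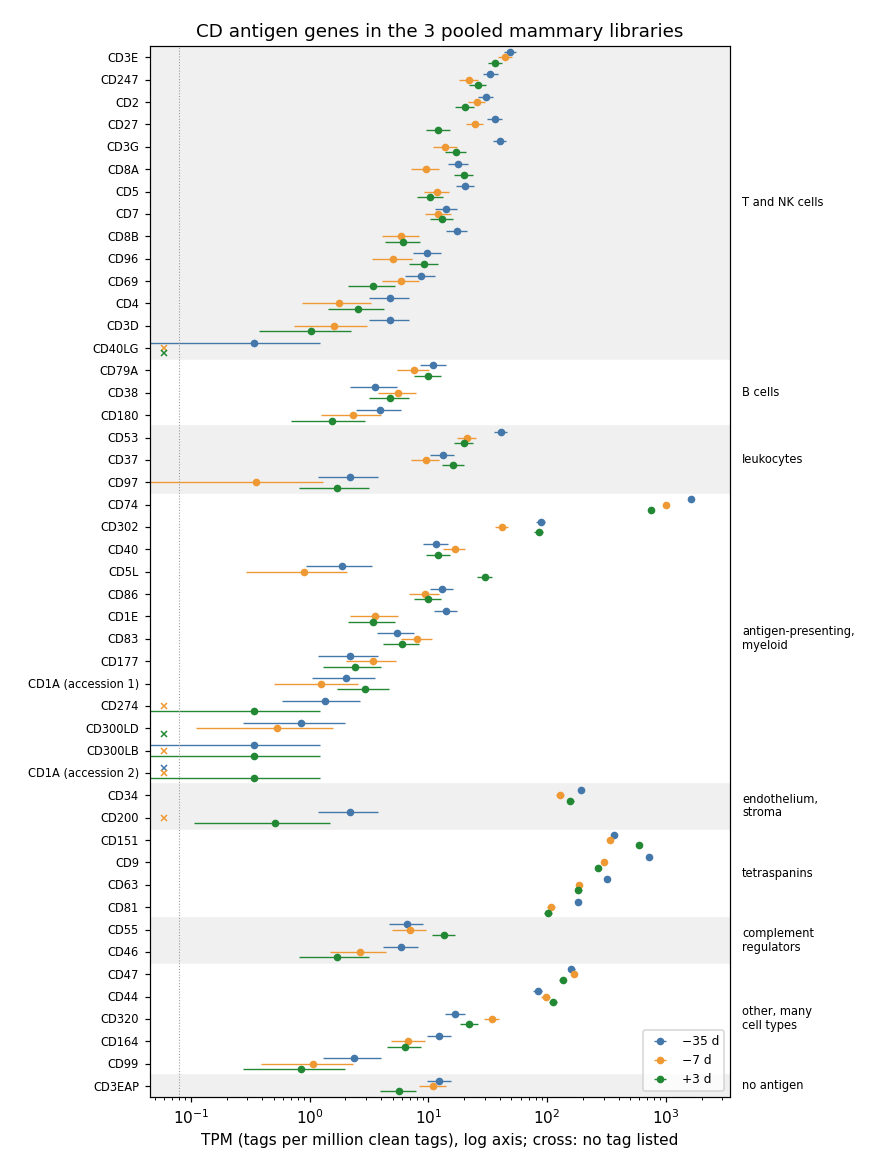
Level of each of the 47 CD antigen genes in TPM (horizontal log axis) in the −35 d, −7 d and +3 d libraries, by the cell type that carries the antigen. Points are single pooled libraries, bars are exact Poisson 95% intervals that cover counting error alone, and a cross marks a library in which no tag was listed; CD5L moved from 1.86 and 0.894 TPM before parturition to 29.9 TPM after it.

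A gene was called when the Audic-Claverie test, adjusted by the Benjamini-Hochberg method over all genes tested, gave an FDR of at most 0.001 and the levels differed at least 2-fold. At −7 d against −35 d, 1 of 46 members tested was called higher (2.17%, against 2.62% of all 8967 genes tested) and 6 lower (13.0%, against 6.45%). At +3 d against −7 d, 3 of 46 were called higher (6.52%, against 3.12% of 8784 genes) and 1 lower (2.17%, against 10.4%). At +3 d against −35 d, 2 of 47 were called higher (4.26%, against 2.33% of 8988 genes) and 11 lower (23.4%, against 16.3%). In all, 17 members were called in at least 1 comparison and 30 in none. The share of all genes called in at least 1 comparison was not counted. With TMM scaling the counts of higher and lower calls were 1 and 4, then 6 and 0, then 3 and 3. Of all genes, 4.22% and 3.90%, then 5.87% and 4.90%, then 6.23% and 4.94% were called higher and lower with that scaling. The median log2 ratio of the 41 members was −0.70 at −7 d over −35 d (−0.19 for all genes), −0.08 at +3 d over −7 d (−0.31) and −0.39 at +3 d over −35 d (−0.54). After TMM scaling these medians were −0.51, 0.23 and 0.11, so the last 2 changed sign.

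**Figure D2:**
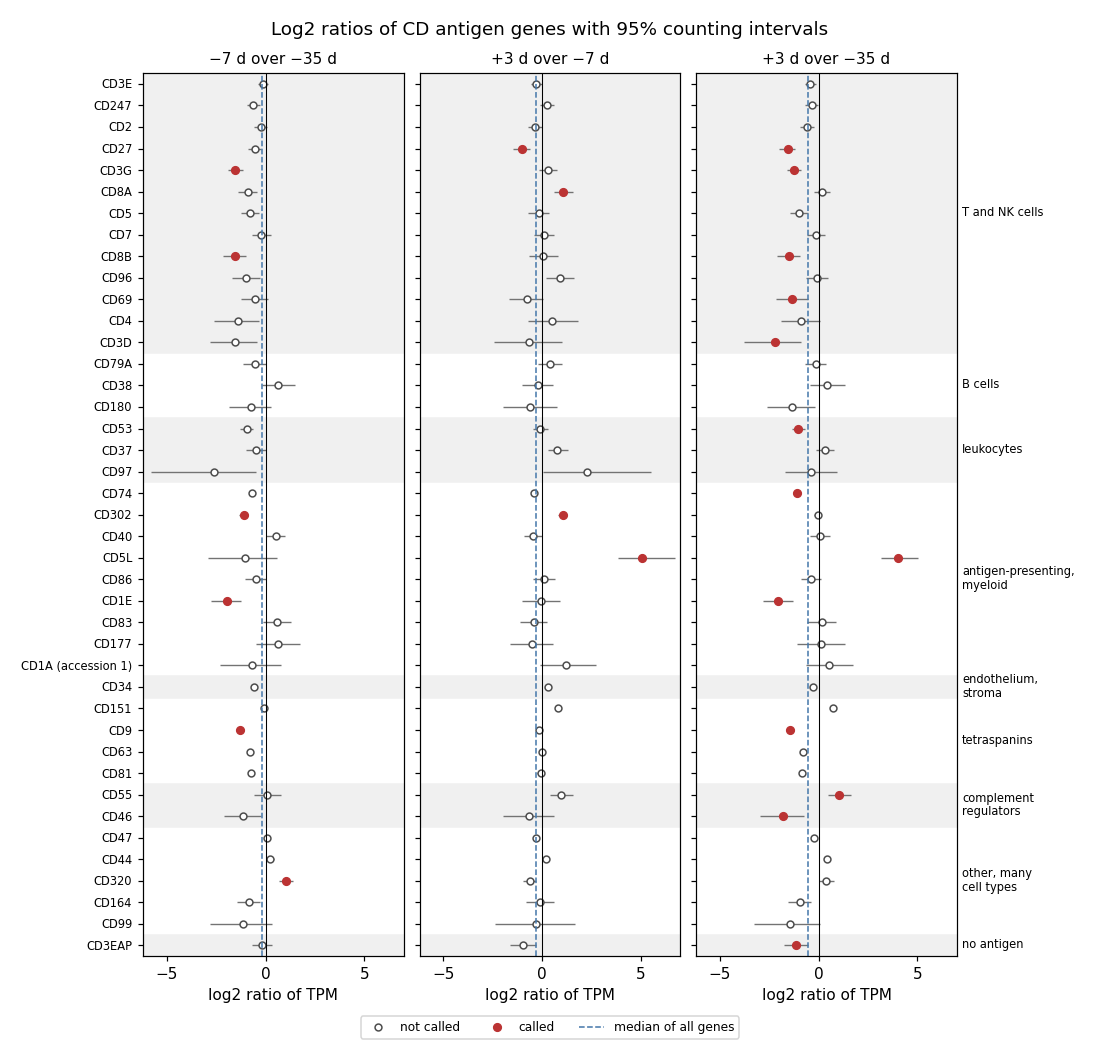
Log2 ratio of TPM between libraries (horizontal axes) for the 41 CD antigen genes averaging at least 1 TPM, in the order of the groups. Lines are 95% counting intervals, filled red points were called and open points were not, and the dashed line is the median of all genes; red points lie mostly left of 0 in the first and last panels, with 6 and 11 lower calls among all members (4 and 3 with TMM scaling), whereas CD5L lies far to the right in the panels that hold the +3 d library.

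T and NK cells carry 14 of the antigens. Their summed level was 287 TPM at −35 d, 184 TPM at −7 d and 178 TPM at +3 d, with 2 members called lower and 0 higher at −7 d against −35 d (26 of all 46 members had an unadjusted Audic-Claverie p under 0.05), 1 higher and 1 lower at +3 d against −7 d, and 5 lower and 0 higher at +3 d against −35 d. Of all genes, 6.45% were called lower in the first of these comparisons, 3.12% higher and 10.4% lower in the second, and 16.3% lower in the last. With TMM scaling the counts for the group were 2 lower and 0 higher, 1 higher and 0 lower, and 2 lower and 0 higher. The shares of all genes were then 3.90% lower, 5.87% higher and 4.94% lower. Relative to −35 d the sum was 64.3% at −7 d and 62.0% at +3 d, and with TMM scaling 73.3% and 87.6%.

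The invariant chains of the T cell receptor complex did not move alike. CD3E, the epsilon chain and the antigen of this group with the most tags, was at 48.5, 44.3 and 36.4 TPM at −35 d, −7 d and +3 d and was called in no comparison. Its log2 ratio at +3 d over −35 d was −0.41, and 0.08 with TMM scaling, so no direction holds there. CD3G, the gamma chain, was at 40.1, 13.9 and 17.1 TPM, with the 2 later libraries far below the first. It was 2.87-fold lower at −7 d than at −35 d (log2 ratio −1.52, 95% interval −1.91 to −1.15, Audic-Claverie FDR 9.4e-17) and 2.34-fold lower at +3 d than at −35 d (log2 ratio −1.23, FDR 7.7e-13), the latter not called under TMM scaling (log2 ratio −0.73). CD3D, the delta chain, had few tags, with 4.73, 1.61 and 1.03 TPM from 28, 9 and 6 tags. Its level at +3 d was 4.61-fold lower than at −35 d (log2 ratio −2.21, 95% interval −3.77 to −0.91, FDR 0.00042), a call lost under TMM scaling. CD247, the zeta chain, which carries most of the signalling motifs, was at 33.3, 21.8 and 26.0 TPM and was not called, with a log2 ratio of −0.61 at −7 d over −35 d (95% interval −0.95 to −0.28). In the ARS-UCD2.0 annotation CD3D lies directly beside both CD3E and CD3G, with no gene between.

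A share within a library does not depend on how libraries are scaled. Of the tags of CD3G and CD3E together, CD3G held 45.2% at −35 d (95% exact binomial interval 40.9 to 49.6), 23.9% at −7 d (19.4 to 28.9) and 31.9% at +3 d (26.8 to 37.4). The interval at −35 d overlaps neither of the later ones. CD3D set against CD3E held 8.89%, 3.50% and 2.74%, each from at most 28 CD3D tags. For CD247 against CD3E the shares were 40.7%, 33.0% and 41.6%, and for CD2, an adhesion receptor of T and NK cells, 38.5%, 36.7% and 35.7%. The 3 intervals of CD2 overlap, so CD2 and CD3E kept a like ratio within counting error. These pairs were chosen after their values had been seen, and the intervals cover counting error alone.

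The chains of the CD8 co-receptor of cytotoxic T cells, which lie side by side in the annotation, also went apart. CD8A, the alpha chain, was at 17.8, 9.48 and 20.0 TPM, low in the −7 d library and near equal in the others. It was 2.11-fold higher at +3 d than at −7 d (log2 ratio 1.08, 95% interval 0.60 to 1.58, FDR 1.5e-05), and its log2 ratio at −7 d over −35 d of −0.91 did not reach 2-fold. CD8B, the beta chain, was at 17.4, 5.90 and 6.16 TPM and so stayed low after parturition. It was 2.95-fold lower at −7 d (log2 ratio −1.56, 95% interval −2.17 to −0.98, FDR 6.4e-08) and 2.83-fold lower at +3 d (log2 ratio −1.50, 95% interval −2.09 to −0.94, FDR 6.2e-08) than at −35 d, both also called under TMM scaling, although the latter fell just short of 2-fold with DESeq2 size factors (log2 ratio −0.98). Of the tags of the pair CD8B held 49.5% at −35 d (42.5 to 56.5), 38.4% at −7 d (28.1 to 49.5) and 23.5% at +3 d (17.1 to 31.1), and the first and last intervals do not overlap. The alpha chain can pair with itself or with the beta chain, and each has its own gene. CD4, the co-receptor of helper T cells, had 28, 10 and 15 tags (4.73, 1.79 and 2.57 TPM) and was not called.

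**Figure D3:**
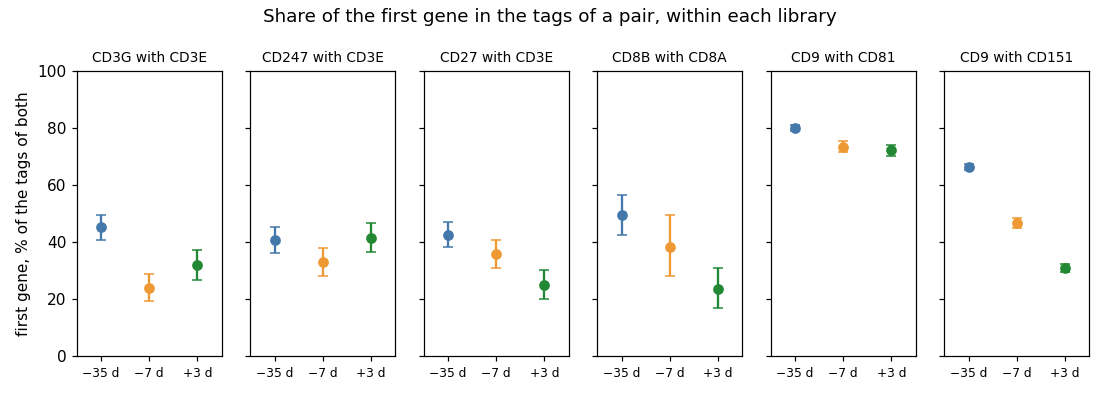
Share of the first gene of a pair in the tags of both (vertical axis, %), within each of the −35 d, −7 d and +3 d libraries; bars are 95% exact binomial intervals. The share of CD8B against CD8A went from 49.5% to 23.5% between −35 d and +3 d and that of CD9 against CD151 from 66.4% to 31.0%, whereas that of CD247 against CD3E was 40.7% and 41.6%.

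CD27, a co-stimulatory receptor of the TNF receptor family on resting T cells and memory B cells, was at 36.2, 24.7 and 12.1 TPM, lower in each later library. The level at +3 d was 2.98-fold lower than at −35 d (log2 ratio −1.57, 95% interval −1.98 to −1.18, FDR 1.3e-16), and this call held under TMM scaling (log2 ratio −1.08). At +3 d against −7 d it was 2.03-fold lower (log2 ratio −1.02, FDR 3.4e-06) and was the member called lower in that comparison, but not under TMM scaling (log2 ratio −0.71). Against CD3E the share of CD27 was 42.7% (38.3 to 47.2), 35.8% (31.0 to 40.8) and 25% (20.1 to 30.5). CD69, an early activation antigen that keeps lymphocytes in tissue, was at 8.62, 5.90 and 3.42 TPM and was called lower at +3 d against −35 d (log2 ratio −1.33, FDR 0.00076), a call lost under TMM scaling (log2 ratio −0.84). CD5, which dampens antigen receptor signals, was at 20.5, 11.8 and 10.4 TPM with log2 ratios of −0.79 and −0.97 for the 2 later libraries over −35 d and was not called. CD2 was at 30.4, 25.7 and 20.2 TPM, CD7 at 14.2, 12.2 and 13.0 TPM, and CD96, a receptor of NK and T cells, at 9.81, 5.01 and 9.24 TPM, none of them called relative to clean tags. CD40LG, the helper T cell ligand of CD40, had 2 tags at −35 d and was listed at 0 in the other libraries.

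Of 22 other genes listed for T and NK cells, 18 were found, with summed levels of 214, 165 and 176 TPM, or 77.3% and 82.5% of the −35 d level in the later libraries (88.2% and 116% with TMM scaling, so the direction at +3 d turned). At −7 d against −35 d, LCK, the kinase that starts CD3 signalling, was called lower at 16.7, 5.72 and 8.90 TPM in the 3 libraries. TRAT1, an adaptor of the T cell receptor complex, was called lower in the same comparison at 7.44, 1.97 and 2.39 TPM. Granulysin, GNLY, a protein of the granules of cytotoxic T and NK cells, went the other way and was called higher in the later libraries than at −35 d, at 6.93, 17.9 and 21.2 TPM. NKG7, another granule gene and the one with the most tags of this list, was at 30.4, 31.6 and 40.2 TPM and was not called. ZAP70, the kinase recruited by the zeta chain, was at 36.4, 24.7 and 21.4 TPM and was not called either. Other granule genes were not higher in both later libraries: perforin, PRF1, was at 6.26, 2.32 and 5.47 TPM and granzyme A, GZMA, had 6, 9 and 0 tags, neither called.

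B cell antigens were 3, and none was called in any comparison. Among their unadjusted Audic-Claverie p-values, that of CD180 at +3 d against −35 d (0.015) was the one under 0.05. Over all members of the set, not the B cell antigens alone, 26, 19 and 29 had such a p in the 3 comparisons. CD79A, the signalling chain of the B cell receptor, was at 11.0, 7.51 and 9.92 TPM. CD38, an enzyme of the surface of plasma cells and activated lymphocytes, was at 3.55, 5.54 and 4.79 TPM. CD180, a relative of the toll-like receptors on B cells, was at 3.89, 2.32 and 1.54 TPM. These came from at most 65 tags per library, so only large differences could have been called. Of 17 other genes of B and plasma cells 7 were found, and none was called. The joining chain of IgM and IgA, IGJ, made up most of their tags at 283, 149 and 160 TPM. At +3 d the summed CD antigens stood at 88.2% of the −35 d level and the other genes at 57.0% (125% and 80.5% with TMM scaling).

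Antigen-presenting and myeloid cells carry 13 of the genes. At −7 d against −35 d 2 were called lower, and at +3 d against −7 d 2 higher, where 6.45% and 3.12% of all genes were. At +3 d against −35 d 1 was called higher and 2 lower, where 2.33% and 16.3% of all genes were. With TMM scaling these counts were 1, 2, 1 and 1 (3.90%, 5.87%, 6.23% and 4.94% of all genes). CD74, the invariant chain that guides MHC class II molecules to the endosome, was the member with the most tags, at 1620, 999 and 754 TPM, lower in each later library. It was 2.15-fold lower at +3 d than at −35 d (log2 ratio −1.10, 95% interval −1.16 to −1.05), which did not reach 2-fold under TMM scaling (log2 ratio −0.61). At −7 d over −35 d its log2 ratio was −0.70 and at +3 d over −7 d −0.41, and neither was called. Of 14 listed partners of CD74, 4 were found. Cathepsin S, CTSS, the protease that removes CD74 from class II molecules, was called lower in both later libraries than at −35 d, at 432, 151 and 124 TPM, also with TMM scaling. The class II gene BOLA-DQB was at 0.507, 13.9 and 32.2 TPM and was called higher in every comparison. BOLA-DQA2, at 3.89, 0.536 and 0 TPM, was called lower in both later libraries than at −35 d, with TMM scaling at +3 d only. BOLA-DOB, at 3.55, 2.15 and 0.513 TPM, was called lower at +3 d against −35 d, a call lost under TMM scaling. Class II genes are duplicated and differ among animals, so tags of the pools may be split among copies and these levels are uncertain.

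CD1E, a CD1 molecule of dendritic cells that helps to load lipid antigens, was at 14.0, 3.58 and 3.42 TPM, with both later libraries at about the same level. It was 3.92-fold lower at −7 d (log2 ratio −1.97, 95% interval −2.76 to −1.25, FDR 1e-08) and 4.10-fold lower at +3 d (log2 ratio −2.04, 95% interval −2.82 to −1.32, FDR 1.5e-09) than at −35 d, and both calls held under every scaling tried. CD1A had 12, 7 and 17 tags on one accession and 0, 0 and 2 on the other, and was not called. The annotation gives the first of these as an unnamed CD1 locus, and CD1 genes resemble one another, so their tags may be split. CD302, a C-type lectin receptor of macrophages and dendritic cells, was at 88.3, 41.5 and 85.2 TPM, low only in the −7 d library. It was 2.13-fold lower at −7 d than at −35 d (log2 ratio −1.09, FDR 8.4e-22; log2 ratio −0.90 and not called with TMM scaling) and 2.05-fold higher at +3 d than at −7 d (log2 ratio 1.04, 95% interval 0.81 to 1.27, FDR 1.2e-19).

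CD5L, the apoptosis inhibitor that tissue macrophages secrete and that circulates bound to IgM, showed the largest ratio among the members of over 10 tags in the pair of libraries and with no library at 0. It had 11, 5 and 175 tags, or 1.86, 0.894 and 29.9 TPM, so the +3 d library stood far above both others. The level at +3 d was 33.5-fold that at −7 d (log2 ratio 5.07, 95% interval 3.82 to 6.71, FDR 1.5e-42) and 16.1-fold that at −35 d (log2 ratio 4.01, 95% interval 3.13 to 5.04, FDR 2.1e-38). It was the member still called when a biological coefficient of variation of 0.2 was assumed. Of 14 listed macrophage symbols 10 were found, as 11 genes, and these did not all move alike. At −7 d against −35 d, 4 were called lower and 0 higher, where 6.45% of all genes were called lower. At +3 d, 4 were called higher and 0 lower against −7 d, and 2 higher and 0 lower against −35 d. Of all genes, 3.12% and 2.33% were called higher in these comparisons. With TMM scaling the counts were 4 lower, 5 higher and 3 higher, where 3.90%, 5.87% and 6.23% of all genes were called in these directions. CD163, the haemoglobin scavenger receptor, was at 7.78, 1.97 and 19.8 TPM, CD14, the co-receptor for endotoxin, at 2.87, 4.29 and 19.7 TPM, and the receptor CSF1R at 52.1, 22.5 and 54.4 TPM. Of the 10 genes averaging at least 1 TPM, 4 were lower at +3 d than at −35 d relative to clean tags. Among these were CD68 at 5.92, 0.894 and 2.05 TPM, AIF1 at 51.6, 28.8 and 38.1 TPM and FCER1G at 58.0, 33.4 and 33.5 TPM. The sum of the macrophage list was 410, 299 and 517 TPM, or 126% of the −35 d level at +3 d (178% with TMM scaling). Without C1QB, the gene of the list with the most tags, it was 105% relative to clean tags. The part of macrophages in the levels of CD5L and CD302 was not tested.

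The co-stimulatory antigens were not called. CD40 was at 11.7, 16.6 and 12.1 TPM, CD83, a marker of mature dendritic cells, at 5.41, 8.05 and 5.99 TPM, and CD86, the ligand of CD28, at 13.0, 9.30 and 9.92 TPM. CD40 and CD83 had their highest values in the −7 d library, where CD1E and CD302 were low, but were not called there. The log2 ratio at −7 d over −35 d was 0.51 for CD40 (95% interval 0.05 to 0.98; 0.70 with TMM scaling), which leaves out 0, whereas for CD83 the interval holds 0. CD177, a neutrophil antigen, had 13, 19 and 14 tags, and of 10 neutrophil genes 5 were found, with S100A8 at 8.12, 3.93 and 5.82 TPM and S100A9 at 7.44, 3.75 and 4.96 TPM, neither called. Lactoferrin, LTF, which mammary epithelium also makes, held most tags of that list at 2650, 1666 and 1136 TPM and was called lower at +3 d against −35 d (log2 ratio −1.22), a call lost under TMM scaling. CD274, the ligand of the inhibitory receptor PDCD1, had 8, 0 and 2 tags, while PDCD1 was at 9.30, 12.3 and 4.62 TPM and was called lower at +3 d against −7 d, a call lost under TMM scaling. CD300LB had 2, 0 and 2 tags and CD300LD 5, 3 and 0, and depth does not allow a difference to be seen at these counts. Without CD74 the group summed to 141, 85.1 and 153 TPM.

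Antigens of leukocytes of several kinds were 3. CD53, a tetraspanin of leukocytes, was at 40.7, 21.1 and 19.8 TPM, with both later libraries near the same level. It was 2.05-fold lower at +3 d than at −35 d (log2 ratio −1.04, 95% interval −1.37 to −0.71, FDR 3.5e-10), a call lost under TMM scaling (log2 ratio −0.54), and its log2 ratio at −7 d over −35 d was −0.95. CD37, a tetraspanin mainly of B cells, was at 13.2, 9.48 and 16.3 TPM, called higher at +3 d against −7 d only after TMM or DESeq2 scaling or with the milk protein genes left out of the totals. CD97, an adhesion receptor now named ADGRE5, had 13, 2 and 10 tags and was not called. Of 11 other genes shared by leukocytes 9 were found, with sums of 454, 290 and 412 TPM. Their sum was 64.0% of the −35 d level at −7 d and 90.8% at +3 d (73.0% and 128% with TMM scaling, which turns the direction at +3 d). ITGB2, the common chain of the leukocyte integrins, was called lower at −7 d at 40.2, 14.8 and 22.2 TPM, and LAPTM5, a lysosomal protein of blood cells, was at 192, 138 and 236 TPM. LAPTM5 was called higher at +3 d against −7 d with TMM scaling (log2 ratio 1.08) but not relative to clean tags (0.78).

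**Figure D4:**
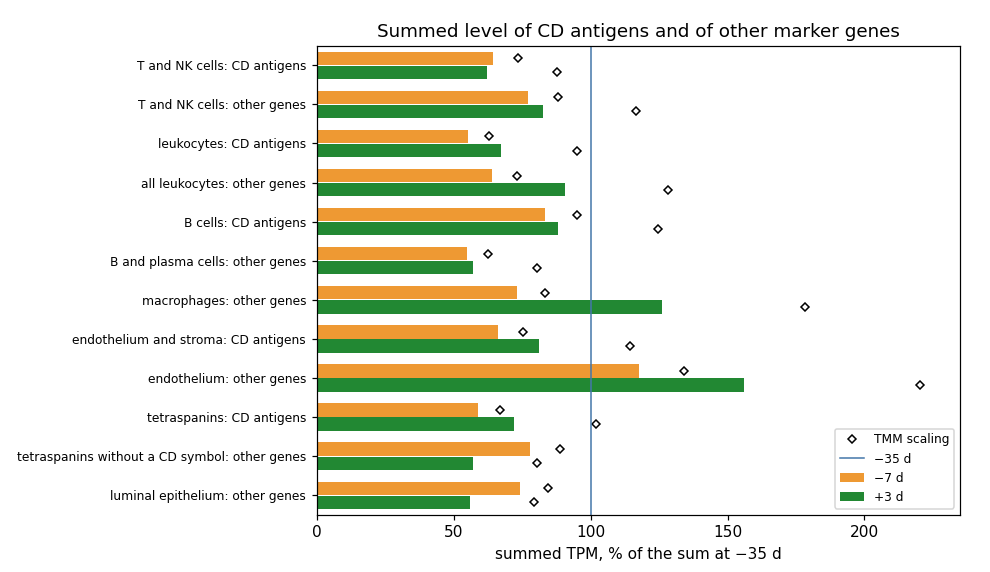
Summed TPM of CD antigens by cell type and of other marker genes of the same cell types in the −7 d and +3 d libraries, as a percentage of the sum in the −35 d library (vertical line); bars start at 0, use clean tags and have no error, and diamonds give the same percentage with TMM scaling. The CD antigens of T and NK cells were at 64.3% and 62.0% (73.3% and 87.6% with TMM scaling), and the diamonds of +3 d pass 100% where the bars do not for T and NK cell markers, leukocyte markers, B cell antigens, antigens of endothelium and stroma, and CD tetraspanins.

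Endothelium and stroma were represented by CD34 and CD200. CD34, a sialomucin of capillary endothelium, stromal progenitors and blood stem cells, was at 192, 128 and 157 TPM, lowest in the −7 d library. Its log2 ratio was −0.58 at −7 d over −35 d (95% interval −0.72 to −0.45) and 0.29 at +3 d over −7 d (0.15 to 0.43), intervals that leave out 0, but both differences were under 2-fold. At +3 d over −35 d the ratio was −0.29 relative to clean tags and 0.21 with TMM scaling, so no direction holds there. CD200, an inhibitory ligand of endothelium, stroma and lymphocytes, had 13, 0 and 3 tags. It was called lower at −7 d against −35 d (Audic-Claverie FDR 0.00082), but not under TMM scaling (FDR 0.0019) or by Fisher's exact test (FDR 0.0012), and no fold is given since −7 d is listed at 0. Of 15 other endothelial genes 12 were found, and their sum was 345, 406 and 539 TPM, 118% and 156% of the −35 d level in the later libraries. At −7 d against −35 d 0 were called. At +3 d against −7 d, 2 were called higher and 0 lower, where 3.12% of all genes were called higher. At +3 d against −35 d, 2 were called higher and 1 lower, where 2.33% and 16.3% of all genes were called. With TMM scaling 1, 2 and 4 were called higher and 0 lower, where 4.22%, 5.87% and 6.23% of all genes were called higher. The gene called lower was KDR at 16.2, 11.4 and 7.36 TPM (log2 ratio −1.14 at +3 d over −35 d). ENG, a TGF-beta co-receptor, was at 96.5, 129 and 170 TPM and was called higher at +3 d against −35 d with TMM scaling only (log2 ratio 1.31). ERG, an endothelial transcription factor, was called higher at +3 d than in either earlier library at 14.9, 16.8 and 44.0 TPM. PECAM1, the adhesion molecule at endothelial junctions, was at 8.12, 5.01 and 8.38 TPM and was not called. Of 12 fibroblast and pericyte genes 10 were found, with sums of 8000, 6014 and 9239 TPM. At −7 d against −35 d 1 was called lower (6.45% of all genes were), and at +3 d against −7 d 2 higher (3.12%). At +3 d against −35 d 1 was called higher and 1 lower (2.33% and 16.3%). The gene called lower was RGS5, of pericytes, at 42.6, 10.7 and 16.8 TPM. COL1A1, with the most tags, was at 2372, 2072 and 3262 TPM. THY1, at 240, 211 and 419 TPM, was called higher at +3 d than in either earlier library with TMM scaling only.

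Tetraspanins found on many cell types held 4 members of high level. CD9, a partner of integrins in epithelium, was at 725, 301 and 267 TPM, with both later libraries far below −35 d. It was 2.41-fold lower at −7 d (log2 ratio −1.27, 95% interval −1.35 to −1.19, FDR 9.4e-225) and 2.72-fold lower at +3 d (log2 ratio −1.44, 95% interval −1.53 to −1.36, FDR 1.7e-280) than at −35 d, the former also with TMM scaling and the latter not (log2 ratio −0.94). CD63, of late endosomes and exosomes, was at 321, 187 and 184 TPM and CD81, a widespread tetraspanin, at 181, 108 and 102 TPM. Their log2 ratios at −7 d over −35 d were −0.78 and −0.75, and at +3 d over −35 d −0.80 and −0.83, all under 2-fold. CD151, which binds laminin-binding integrins in basal epithelium and endothelium, went the other way at 366, 342 and 596 TPM. Its log2 ratio at +3 d was 0.80 over −7 d (95% interval 0.72 to 0.88) and 0.70 over −35 d (0.62 to 0.78), under 2-fold relative to clean tags and called higher in both with TMM scaling (1.11 and 1.20).

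The tags of the tetraspanins stood in different ratios in the 3 libraries. CD9 held 66.4% of the tags of CD9 and CD151 at −35 d (65.3 to 67.6), 46.8% at −7 d (45.2 to 48.5) and 31.0% at +3 d (29.7 to 32.2), and no pair of these intervals overlaps. CD63 against CD151 held 46.7%, 35.4% and 23.6%. CD9 against CD81 moved less, from 80.0% (78.9 to 81.1) to 73.6% (71.7 to 75.4) and 72.3% (70.4 to 74.2). The 8 luminal markers found summed to 1628, 1207 and 914 TPM, or 74.1% and 56.1% of the −35 d level (84.6% and 79.2% with TMM scaling). In each later library 2 were called lower and 0 higher against −35 d (1 and then 0 lower with TMM scaling). Of all genes, 6.45% and 16.3% were called lower there (3.90% and 4.94% with TMM scaling). The luminal markers did not move alike, since ELF5, a transcription factor of secretory cells, was at 271, 353 and 155 TPM and the junction protein CLDN7 at 106, 108 and 77.5 TPM. Basal and smooth muscle markers summed to 933, 538 and 1143 TPM. At +3 d against −35 d, 3 of 8 genes were called higher and 1 lower (3 and 0 with TMM scaling). Of all genes, 2.33% and 16.3% were called (6.23% and 4.94% with TMM scaling). KRT17 of this list was at 129, 98.7 and 293 TPM and KRT5 at 160, 41.1 and 62.1 TPM. The part of these cell types in the levels of CD9 and CD151 was not tested. Of 22 tetraspanins without a CD symbol 18 were found, and 0 were called higher and 5 lower at +3 d against −35 d, where 16.3% of all genes were called lower, among them TSPAN3 at 361, 226 and 170 TPM. None of these 5 was called with TMM scaling.

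The complement regulators were CD46 and CD55, which keep complement from attacking the body's own cells by inactivating C3b and by taking apart the convertases. CD55 was at 6.59, 6.97 and 13.5 TPM, higher at +3 d than in both earlier libraries. It was 2.05-fold higher at +3 d than at −35 d (log2 ratio 1.04, 95% interval 0.46 to 1.63, FDR 0.00052), also with TMM scaling, whereas the difference from −7 d was just under 2-fold relative to clean tags (1.94-fold) and was called with TMM scaling (log2 ratio 1.26). CD46, the neighbour of CD34 in the annotation, was at 5.92, 2.68 and 1.71 TPM from 35, 15 and 10 tags. Its level at +3 d was 3.46-fold lower than at −35 d (log2 ratio −1.79, 95% interval −2.97 to −0.75, FDR 0.00056), but not called with TMM scaling (log2 ratio −1.29). Of 21 other genes of the complement system 18 were found, with 9 called lower and 0 higher at −7 d against −35 d and 6 higher and 0 lower at +3 d against −7 d. Of all genes, 6.45% and 3.12% were called in these directions. With TMM scaling the counts were 6 lower and 7 higher, where 3.90% and 5.87% of all genes were called. C3, the central component, was at 241, 64.9 and 230 TPM. CFI, the protease for which CD46 is a cofactor, was at 152, 24.5 and 23.3 TPM. It was called lower in both later libraries than at −35 d, also with TMM scaling.

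Other antigens of many cell types were 5. CD320, the receptor for vitamin B12 bound to transcobalamin, was at 16.9, 34.1 and 22.1 TPM and was the member called higher at −7 d against −35 d. The difference was 2.02-fold (log2 ratio 1.01, 95% interval 0.66 to 1.38, FDR 5.1e-08) and held with TMM scaling (log2 ratio 1.20). CD44, the receptor for hyaluronan and osteopontin, was at 83.2, 97.3 and 112 TPM, with a log2 ratio of 0.43 at +3 d over −35 d, under 2-fold. Its ligand osteopontin, SPP1, was called lower in both later libraries than at −35 d, at 5637, 333 and 524 TPM. CD47, the signal against phagocytosis, was at 161, 169 and 136 TPM and was not called. Its log2 ratio at +3 d over −35 d was −0.24, and 0.25 with TMM scaling. SIRPA, its receptor on macrophages, was at 7.44, 5.72 and 4.45 TPM, while THBS1, a matrix ligand of CD47, was at 94.9, 55.8 and 236 TPM and was called higher at +3 d than in either earlier library. CD164, a sialomucin, was at 12.3, 6.79 and 6.33 TPM, and CD99 had 14, 6 and 5 tags.

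CD3EAP, the polymerase subunit, was at 12.3, 10.9 and 5.65 TPM and was called lower at +3 d against −35 d (log2 ratio −1.13, FDR 0.00037), a call lost under TMM scaling (log2 ratio −0.63). It is counted among the 47 genes and the 11 lower calls because the symbol fits the rule, although it is no antigen and is not a chain of the CD3 complex.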

How the data were processed

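DGE libraries of pooled mammary tissue were made and sequenced by the authors, who removed adaptor tags, tags with unknown bases and tags with 1 copy. The authors matched tags of 21 bases to CATG sites of bovine transcripts (genome UMD 3.1), allowing 1 mismatch. The deposited counts are the copies of each clean tag and the unambiguous tags of each gene, and the deposited TPM values are those counts scaled to a common total of clean tags. A deposited summary with 3 columns of per-library values was not used.

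Gene tables were joined by accession, and a gene not listed was given 0 tags. Of 9154 accessions 7905, and of 47 members 45, matched the ARS-UCD2.0 annotation, used for names and neighbours only. The members, cell type groups and marker lists were chosen with earlier results of these data known. In the Audic-Claverie test the smaller tail was doubled, and p was adjusted by Benjamini-Hochberg over all genes with a tag in either library, with 0 TPM set to 0.01 TPM. Intervals are 95% (exact binomial for ratios and shares, exact Poisson for levels) and cover counting error only. Alternatives were 9 (scaling by edgeR's TMM, DESeq2's size factors or totals without genes over 1% of clean tags; a 3-fold threshold; Fisher's exact test; edgeR's exactTest at a biological coefficient of variation (BCV) set to 0.2 or 0.4; a mean of at least 5 TPM; 0.5 tags added). Levels were given for each called member, for the member with the most tags in each group and for members set beside them; other members were named after their values were seen. The test was checked on simulated Poisson counts without spread among pools, the model that the test assumes, so the check does not bear on that spread. No sequence of a transcript or protein was used here, and results for some genes are left out. Tools were Python 3.11.15, numpy 2.4.6, scipy 1.17.1, pandas 2.3.3, matplotlib 3.10.9, R 4.3.3, edgeR 4.0.16 and DESeq2 1.42.0.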

Additional observations from a re-analysis of the deposited data

How the results depend on the processing

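Calls rested on 1 pooled library per time point, so no replicate could be left out. No paired analysis was possible because each group holds 1 library, and the groups were pooled from different cows. Counts of members called higher and lower at −7 d against −35 d were 1 and 6 as reported, and 0 and 2 with a 3-fold threshold (1.08% and 2.45% of all genes). At +3 d against −7 d they were 3 and 1, and became 6 and 0 with TMM scaling, 7 and 0 with DESeq2 size factors, 6 and 0 with totals that leave out genes over 1%, and 1 and 0 with the 3-fold threshold. The shares of all genes called higher and lower were then 5.87% and 4.90%, 5.97% and 4.70%, 5.89% and 4.90%, and 1.46% and 3.55%. At +3 d against −35 d the counts of members were 2 and 11, and became 3 and 3 with TMM, 3 and 2 with DESeq2 size factors, 3 and 4 without the genes over 1%, and 1 and 3 with the 3-fold threshold. The shares of all genes were then 6.23% and 4.94%, 6.36% and 4.67%, 4.58% and 6.98%, and 1.39% and 5.94%. Under edgeR's exactTest with the biological coefficient of variation set to 0.2, the counts of members in that order of comparisons were 0 and 0, 1 and 0, and 1 and 0 (0.301% and 0.301%, 0.74% and 1.08%, and 0.601% and 1.1% of all genes), with 12, 4 and 16 members at an unadjusted p under 0.05. With 0.4 every count was 0, with 3, 1 and 3 members at an unadjusted p under 0.05, so the number of calls depends on the spread among pools, which was not measured. The median log2 ratio of the members at −7 d over −35 d was −0.51 with TMM, −0.50 with DESeq2 size factors and −0.57 with a mean of at least 5 TPM. At +3 d over −7 d the median turned to 0.23 with TMM, 0.24 with DESeq2 size factors and 0.23 without the genes over 1%. At +3 d over −35 d it was 0.11, 0.12 and −0.027 under the same scalings. CD34 at +3 d over −35 d turned to 0.21 (TMM), 0.22 (DESeq2) and 0.072 (without the genes over 1%), and CD53 at +3 d over −7 d, −0.09 as reported, turned to 0.22, 0.24 and 0.22, neither being called. Other members turned too. With TMM scaling CD3E and CD47 turned at +3 d over −35 d, from −0.41 to 0.08 and from −0.24 to 0.25. Of the 41 members averaging at least 1 TPM, 29 were below 0 in that comparison relative to clean tags and 19 with TMM scaling. At +3 d over −7 d the numbers were 23 and 14. Fisher's exact test changed 1 call, that of CD200, and 0.5 added tags or a mean of at least 5 TPM changed none of those they could give. Scaling changes the totals alone; why the scalings differ was not tested.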
